A study of Mus musculus with 6 samples.

Results

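The FGF receptors are the 5 genes *Fgfr1*, *Fgfr2*, *Fgfr3*, *Fgfr4* and *Fgfrl1*, taken by name from tables of 53715 genes in 6 RNA-seq libraries of cultured mouse calvarial osteoblasts. All 5 had enough exon reads to be tested among 13858 genes. The study compared 3 Wild-type and 3 Fam102a KO libraries, both on the C57BL/6J background and both from calvarial cells of newborn mice kept for 7 days in osteogenic medium. The Fam102a KO mice carry a deletion in every tissue, made by crossing floxed *Fam102a* mice with a strain in which the *Actb* promoter drives Cre, so all cell types of a culture carry it. The labels do not say whether replicates are separate animals or cultures, so the p-values measure the spread between these libraries, which may be technical.

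*Fgfr1* to *Fgfr4* encode receptor tyrosine kinases that cross the membrane once. An FGF and a heparan sulfate chain bring a pair of them together, the kinases phosphorylate each other, and the signal runs through the adaptor Frs2 into the Ras-ERK, PI3K and PLC-gamma pathways. *Fgfrl1* encodes a related membrane protein that binds FGFs but lacks the kinase domain. In the growing skull, *Fgfr1* and *Fgfr2* act in the osteogenic front and the osteoblasts of the sutures, and activating changes in human FGFR1, FGFR2 and FGFR3 cause craniosynostosis. In the growth plate Fgfr3 restrains the proliferation of chondrocytes.

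The members lie at these places of mm10. *Fgfr1* (ENSMUSG00000031565) is on chromosome 8 from 25513654 to 25575718 on the plus strand. *Fgfr2* (ENSMUSG00000030849) is on chromosome 7 from 130162451 to 133123350 on the minus strand. *Fgfr3* (ENSMUSG00000054252) and *Fgfrl1* (ENSMUSG00000008090) share chromosome 5, from 33721674 to 33737068 and from 108692382 to 108706924, both on the plus strand. *Fgfr4* (ENSMUSG00000005320) is on chromosome 13 from 55152640 to 55168759 on the plus strand. All 5 have the same ends in GENCODE M21, where *Fgfr2* owes its length of 2960900 bases to 1 transcript, *Fgfr2*-217, while the next longest, *Fgfr2*-211, covers 103813 bases. The tables count all transcripts of a gene together, so the epithelial and mesenchymal splice forms of the receptors, which bind different FGFs, cannot be told apart here.

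Promoter sequence is shown for *Fgfr2*, *Fgfr3* and *Fgfrl1*, the receptors with the largest drops for their spread in the Fam102a KO libraries, because the study concerns the transcription factor Runx2. The windows run up to 250 bases upstream of a transcription start of RefSeq (GRCm38.p6) and leave out bases inside annotated exons of the gene. RefSeq promoters were matched for 4 of the 5 receptors. Each is written 5′ to 3′ on the strand of the gene, and capitals mark GC boxes (GGGCGG on either strand), a motif of Sp factors.
*Fgfr2*, chr7:130266809-130267058, minus strand: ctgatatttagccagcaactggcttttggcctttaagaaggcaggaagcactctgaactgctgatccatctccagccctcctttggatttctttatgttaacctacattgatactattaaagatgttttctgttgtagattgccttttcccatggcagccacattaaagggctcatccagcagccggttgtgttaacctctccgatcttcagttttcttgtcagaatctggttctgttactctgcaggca
*Fgfr3*, first start, chr5:33721474-33721673, plus strand: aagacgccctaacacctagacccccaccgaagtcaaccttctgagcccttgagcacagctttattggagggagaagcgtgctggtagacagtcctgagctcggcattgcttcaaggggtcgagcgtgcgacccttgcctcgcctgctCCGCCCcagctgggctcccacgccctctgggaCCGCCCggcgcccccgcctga
*Fgfr3*, second start, chr5:33722056-33722305, plus strand: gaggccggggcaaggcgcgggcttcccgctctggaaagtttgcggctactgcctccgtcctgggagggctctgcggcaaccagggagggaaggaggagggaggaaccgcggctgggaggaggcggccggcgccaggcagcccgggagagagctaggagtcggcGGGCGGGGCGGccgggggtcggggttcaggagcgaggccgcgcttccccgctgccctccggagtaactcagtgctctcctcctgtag
*Fgfrl1*, chr5:108693979-108694228, plus strand: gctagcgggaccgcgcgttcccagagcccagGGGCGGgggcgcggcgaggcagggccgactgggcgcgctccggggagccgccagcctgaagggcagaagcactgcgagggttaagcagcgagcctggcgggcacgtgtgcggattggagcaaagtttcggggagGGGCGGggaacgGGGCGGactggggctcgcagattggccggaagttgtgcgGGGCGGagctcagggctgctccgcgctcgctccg
The RUNX letters TGTGGT and TGCGGT, searched on both strands, had 0 matches in these 4 windows, and 18.6% of the 32851 RefSeq promoters hold at least 1 in the full 250 bases. In the 200 bases of the first *Fgfr3* window the share of all promoters is 15.2%. *Fgfrl1* held 4 GC boxes and each *Fgfr3* window held 2, of which those of the second window overlap by 1 base. *Fgfr2* held 0 GC boxes, and 32.7% of all promoters hold at least 1 in the full 250 bases (24.6% in the 200 bases). CpG pairs numbered 14 in the first *Fgfr3* window, against a median of 4 over all promoters in those 200 bases. They numbered 2 in the *Fgfr2* window, 24 in the second *Fgfr3* window and 30 in the *Fgfrl1* window, against a median of 6 over all promoters of this length. The *Fgfr2* window lies next to a RefSeq start at base 130266808. In GENCODE M21, *Fgfr2*-211 starts further downstream, at 130266263, and *Fgfr2*-217 far upstream, at 133123350. Sequence outside these windows, such as that next to the GENCODE starts of *Fgfr2*, was not searched.

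Levels of different receptors were compared in the deposited RPKM, in which exon reads are divided by exon length and by the total of the library. By this measure *Fgfr2* was the most abundant receptor, and the order *Fgfr2*, *Fgfr1*, *Fgfrl1*, *Fgfr3*, *Fgfr4* held in all 6 libraries. The order of the first 2 depends on the exon lengths used, 7240 bases for *Fgfr2* and 8174 for *Fgfr1*. GENCODE M21 gives 10328 and 9875 exon bases. Before division by length, Fam102a KO replicate 1 had 1939 exon reads of *Fgfr2* and 2115 of *Fgfr1*. *Fgfr2* had 38.6, 38.7 and 48.2 RPKM in Wild-type replicates 1, 2 and 3 and 20.7, 21.5 and 25.9 in Fam102a KO replicates 1, 2 and 3. *Fgfr1* had 19.2, 16.6 and 18.2 RPKM in Wild-type and 20.005, 14.4 and 20.6 in Fam102a KO. The genotypes thus overlapped for *Fgfr1* and were apart for *Fgfr2*, where every Fam102a KO library was low. *Fgfrl1* had 11.6, 10.8 and 12.4 RPKM in Wild-type and 7.53, 7.29 and 6.61 in Fam102a KO. *Fgfr3* had 4.50, 5.98 and 7.73 RPKM in Wild-type and 2.42, 2.37 and 2.10 in Fam102a KO. For both, every Fam102a KO library lay below every Wild-type library, and the Wild-type libraries of *Fgfr3* spread more than those of *Fgfrl1*. *Fgfr4* had 0.231, 0.610 and 0.396 RPKM in Wild-type and 0.153, 0.133 and 0.269 in Fam102a KO, with overlap, on 7 to 41 exon reads a library.

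**Figure D1:**
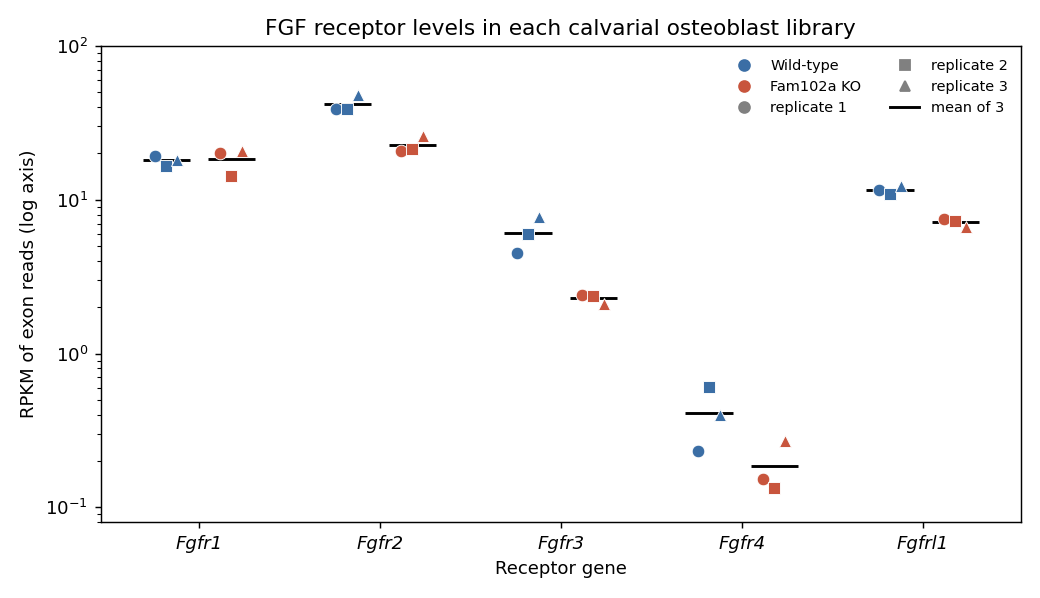
RPKM of exon reads (log axis) of the 5 receptors, with 1 point per library, the shape giving the replicate, the colour the genotype and the bar the mean of 3. *Fgfr2* lies between 38.6 and 48.2 in Wild-type and between 20.7 and 25.9 in Fam102a KO, next to *Fgfr1* at 14.4 to 20.6 in Fam102a KO.

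In the Wild-type libraries the ranges of neighbours in this order did not overlap, and the mean of *Fgfr2* was 2.32 times that of *Fgfr1*. In the Fam102a KO libraries they did not overlap either, but the highest *Fgfr1* value, 20.6 RPKM, lay just below the lowest *Fgfr2* value, 20.7 RPKM, and the ratio of the means was 1.24. *Fgfr4* stood far below the rest, with *Fgfr3* at 14.7 times its mean in Wild-type and 12.4 times in Fam102a KO. By mean RPKM, 495 of the 13858 tested genes were above *Fgfr2* in Wild-type and 1008 in Fam102a KO. For *Fgfr3* these numbers were 3584 and 7663.

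The fold changes between genotypes were fitted on exon reads with edgeR's quasi-likelihood test, TMM normalisation and Benjamini-Hochberg adjustment over all genes tested. In this test 0.0577% of the genes were called lower in Fam102a KO at an adjusted p under 0.05, and *Fgfr2* and *Fgfr3* were 2 of these 8 genes. Both receptors were chosen with their change in these libraries already known, so the count is a description and no independent evidence. In CPM of exon reads, counts scaled to the TMM-normalised size of the library, every Fam102a KO library was below every Wild-type library for *Fgfr2*, *Fgfr3*, *Fgfr4* and *Fgfrl1*, as for 5.69% of all genes tested.

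*Fgfr3* had the most negative fold change of the 5 receptors. It had 393, 813 and 1106 exon reads in the Wild-type libraries and 224, 360 and 252 in the Fam102a KO libraries. In CPM these were 69.4, 94.1 and 113 against 32.9, 36.7 and 27.2, a mean of 92.3 ± 22.1 (SD, n = 3) against 32.3 ± 4.75 (SD, n = 3). This gave a log2 fold change of −1.52 (standard error 0.192, edgeR adjusted p = 0.0429), a level 0.349 times that of Wild-type. With replicate number as a block the log2 fold change was −1.51 and the edgeR adjusted p 0.0719, so the call was lost, and over all alternatives the adjusted p ran from 3.03e-23 to 0.275. The call held without Wild-type replicate 1 (edgeR adjusted p = 0.0470). It was lost without Wild-type replicate 2 (0.226) or 3 (0.216) and without Fam102a KO replicate 1 (0.228), 2 (0.0730) or 3 (0.0664). Within replicates 2 and 3, which share a run label, the log2 fold change was −1.70 (edgeR adjusted p = 0.275). On the opposite strand, *G630022F23Rik* shares 998 of the 7158 exon bases of *Fgfr3*, and whether the counting used strand is not given in the sources used here. Reads across exon junctions, a count added after the values were seen, gave −1.57 (standard error 0.207, edgeR adjusted p = 0.00707).

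*Fgfr2* fell by 1.01 on the log2 scale. It had 3416, 5320 and 6970 exon reads in Wild-type and 1939, 3304 and 3146 in Fam102a KO. In CPM of exon reads these were 603, 616 and 715 against 285, 337 and 340. The Wild-type libraries averaged 645 ± 61.4 (SD, n = 3) and the Fam102a KO libraries 320.5 ± 31.1 (SD, n = 3). The fold change had a standard error of 0.121 (log2) and an edgeR adjusted p of 0.0420. The edgeR adjusted p was 0.0124 with a replicate block and 0.0368 without Fam102a KO replicate 3. It was 0.104, 0.226 and 0.258 without Wild-type replicates 1, 2 and 3, and 0.110 and 0.0647 without Fam102a KO replicates 1 and 2, while the fold change stayed between −1.06 and −0.93 when 1 library was left out. Over all alternatives the adjusted p ran from 7.14e-12 to 0.976, the latter on gene reads, introns included. Within replicates 2 and 3 the log2 fold change was −0.98 (edgeR adjusted p = 0.287). In GENCODE, *Ctbp2* shares 314 exon bases with *Fgfr2* on the same strand. Junction reads, added after the values were seen, gave −1.03 (standard error 0.128, edgeR adjusted p = 0.00510).

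*Fgfrl1* had 394, 573 and 688 exon reads in Wild-type and 271, 430 and 309 in Fam102a KO. In CPM these were 69.6, 66.3 and 70.6 against 39.8, 43.8 and 33.4, and no library of one genotype reached into the range of the other. The log2 fold change was −0.82 (standard error 0.124, edgeR adjusted p = 0.0874), which misses the threshold. It passed with a replicate block (edgeR adjusted p = 0.0448), with a range of 4.70e-06 to 0.509 over the alternatives. Within replicates 2 and 3 the log2 fold change was −0.83, with the highest of these adjusted p. No alternative that left out 1 library passed, the lowest adjusted p being 0.0675 without Fam102a KO replicate 3. Junction reads, added likewise, gave −1.25 (standard error 0.306, edgeR adjusted p = 0.2503).

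*Fgfr4*, the receptor best known from liver and from muscle precursors, had 10, 41 and 28 exon reads in Wild-type and 7, 10 and 16 in Fam102a KO. In CPM this was 1.77, 4.74 and 2.87 against 1.03, 1.02 and 1.73, so that the genotypes were apart by a gap far smaller than the spread within Wild-type. The log2 fold change was −1.31 (standard error 0.476, unadjusted p = 0.0219, edgeR adjusted p = 0.623), which did not pass the test.

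*Fgfr1* gave no call. It had 1916, 2583 and 2968 exon reads in Wild-type and 2115, 2490 and 2833 in Fam102a KO, which is 338, 299 and 305 CPM against 311, 254 and 306. The log2 fold change was −0.11 (standard error 0.116, edgeR adjusted p = 0.953) and ran from −0.16 to 0.01 over the alternatives. At 314 ± 21.3 (SD, n = 3) and 290.2 ± 31.7 (SD, n = 3) CPM, the difference was within the spread of the replicates. On the opposite strand, *Gm16159* shares 164 exon bases with *Fgfr1*. Uniquely placed reads made up 96.8 to 98.0% of the exon reads of *Fgfr1*, 99.3 to 99.6% of those of *Fgfr2*, 94.2 to 97.2% of those of *Fgfr3* and 98.8 to 99.8% of those of *Fgfrl1*.

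The balance among the receptors was read within libraries. Within each library, *Fgfr2* stood at 2.01, 2.33 and 2.65 times *Fgfr1* in Wild-type RPKM and at 1.04, 1.498 and 1.25 times in Fam102a KO. *Fgfr3* stood at 0.234, 0.359 and 0.426 times *Fgfr1* in Wild-type and at 0.121, 0.165 and 0.102 times in Fam102a KO. Neither ratio overlapped between genotypes, with mean log2 differences of −0.89 and −1.38. The ratio of *Fgfr3* to *Fgfr2*, 0.116, 0.155 and 0.160 against 0.117, 0.110 and 0.0810, overlapped, with a mean log2 difference of −0.49. A 2-sided exact permutation test gave p = 0.1 for each of the first 2 ratios, the smallest p that 3 libraries against 3 allow, and p = 0.2 for the last (0.15, 0.15 and 0.2 adjusted over the 3 ratios).

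The summed RPKM of the 5 receptors was 74.2, 72.8 and 86.8 in Wild-type and 50.8, 45.7 and 55.5 in Fam102a KO, with no overlap (2-sided exact permutation test, p = 0.1). *Fgfr2* made up 53.6 ± 1.72% (SD, n = 3) of this sum in Wild-type and 44.8 ± 3.54% (SD, n = 3) in Fam102a KO. The share of *Fgfr1* was 23.2 ± 2.50% in Wild-type and 36.0 ± 4.09% in Fam102a KO, higher in all 3 Fam102a KO libraries than in any Wild-type library. *Fgfr3* went from 7.73 ± 1.48% to 4.58 ± 0.725%, while *Fgfrl1* had 14.9 ± 0.695% and 14.2 ± 2.08%, which overlapped. The exact permutation p, adjusted over the 5 shares, was 0.167 for *Fgfr1*, *Fgfr2* and *Fgfr3*, 0.625 for *Fgfr4* and 0.8 for *Fgfrl1*, so that no share passed a threshold this design cannot reach.

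**Figure D2:**
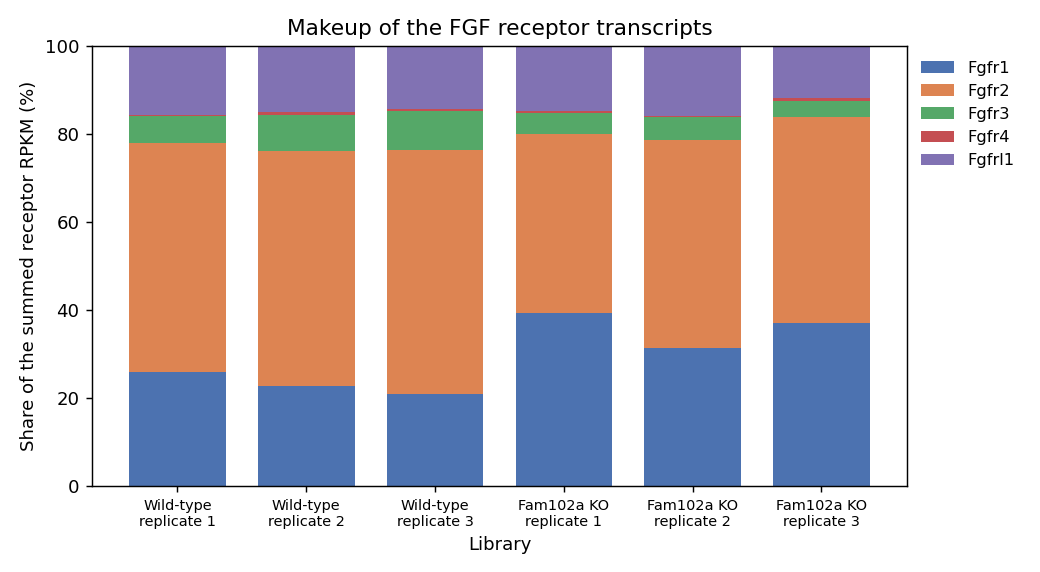
Share of each receptor in the summed RPKM of the 5 receptors, in percent, with 1 stacked bar per library. *Fgfr1* fills 20.9 to 25.9% of the Wild-type bars and 31.4 to 39.4% of the Fam102a KO bars, and *Fgfr2* 52.1 to 55.5% and 40.7 to 47.1%.

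Intron reads, which can come from RNA not yet spliced, were tested apart from exon reads. In that fit, before adjustment, 2.46% of 12777 genes passed p under 0.05 as lower and 0.00783% were called lower at an adjusted p under 0.05. *Fgfr3* and *Fgfrl1* were among the former, and none of the 4 receptors tested was called by edgeR, or by DESeq2, at an adjusted p under 0.05. *Fgfr3* had 51, 92 and 81 intron reads in Wild-type and 24, 51 and 41 in Fam102a KO, a log2 fold change of −1.09 (standard error 0.235, edgeR adjusted p = 0.247). *Fgfrl1* had 76, 151 and 176 against 44, 87 and 70, a log2 fold change of −1.13 (standard error 0.224, edgeR adjusted p = 0.247). With a replicate block *Fgfrl1* was called lower in intron reads (edgeR adjusted p = 0.0403, range over the alternatives 0.000286 to 0.981). *Fgfr1* had 268, 283 and 314 against 269, 300 and 391, a log2 fold change of 0.01 (standard error 0.182). *Fgfr4* had 0 to 13 intron reads a library and was not tested.

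The sign of the intron change of *Fgfr2* depended on the fit and on 1 library. Its intron reads numbered 5740, 6903 and 7112 in Wild-type and 9073, 6480 and 5605 in Fam102a KO, of which 2563, 2858 and 3165 and 5299, 2505 and 2322 were uniquely placed. Fam102a KO replicate 1 was high in intron reads and lowest in exon reads, and the other Fam102a KO libraries lay near the Wild-type ones. The log2 fold change of intron reads was 0.04 (standard error 0.350, edgeR adjusted p = 0.997), −0.42 without Fam102a KO replicate 1 and −0.06 with a replicate block. The annotated span of *Fgfr2* holds 68 other genes, 33 of them on the opposite strand, and 38 have exon reads. Those with the most exon reads over the 6 libraries were *Oat* (22713), *Htra1* (16283), *Cpxm2* (7657), *Acadsb* (5005) and *Tacc2* (4683). The exon reads of all genes inside, not scaled for depth, summed to 9144, 14595 and 17312 in Wild-type and 8489, 12990 and 14380 in Fam102a KO. Which of the *Fgfr2* intron reads come from *Fgfr2* RNA was not tested.

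**Figure D3:**
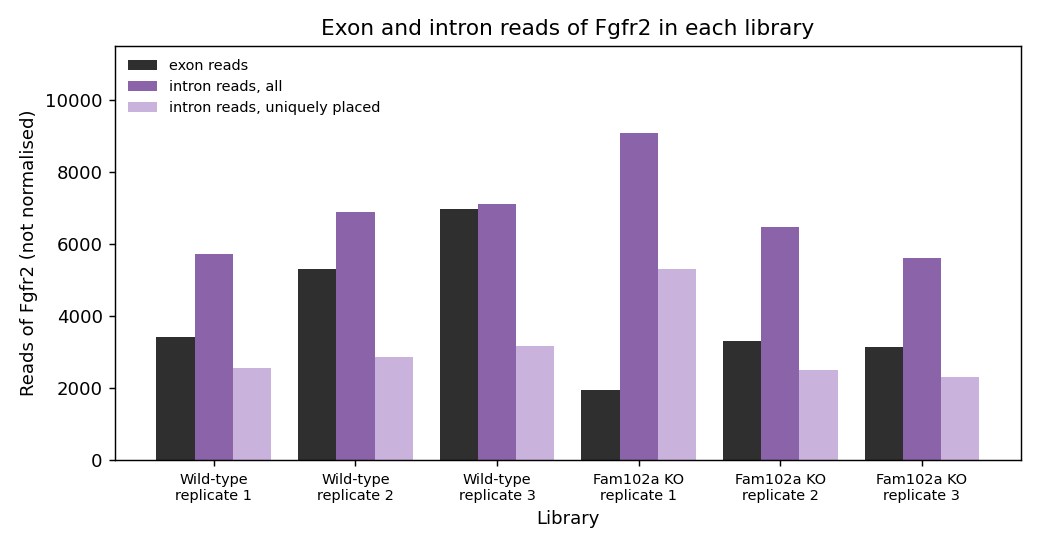
Reads of *Fgfr2* in each library, not normalised for depth, as exon reads, all intron reads and uniquely placed intron reads. Fam102a KO replicate 1 has 1939 exon reads and 9073 intron reads, the lowest and the highest of the 6 libraries.

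The difference between the exon and the intron change was tested in 1 fit with the library as a block. Of 10943 genes, 2.08% had a more negative exon change at an unadjusted p under 0.05, *Fgfr2* among them, and edgeR called 0 genes at an adjusted p under 0.05 (213 and 228 genes at an unadjusted p under 0.05 in either direction). The exon minus intron log2 fold change was −0.95 for *Fgfr2* (standard error 0.315, edgeR adjusted p = 1.00) and −0.51 without Fam102a KO replicate 1, −0.43 for *Fgfr3* (standard error 0.238), −0.12 for *Fgfr1* (standard error 0.174) and 0.29 for *Fgfrl1* (standard error 0.228). For *Fgfr3* and *Fgfrl1* exon and intron reads were thus both lower, with a difference that the test did not separate from 0.

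**Figure D4:**
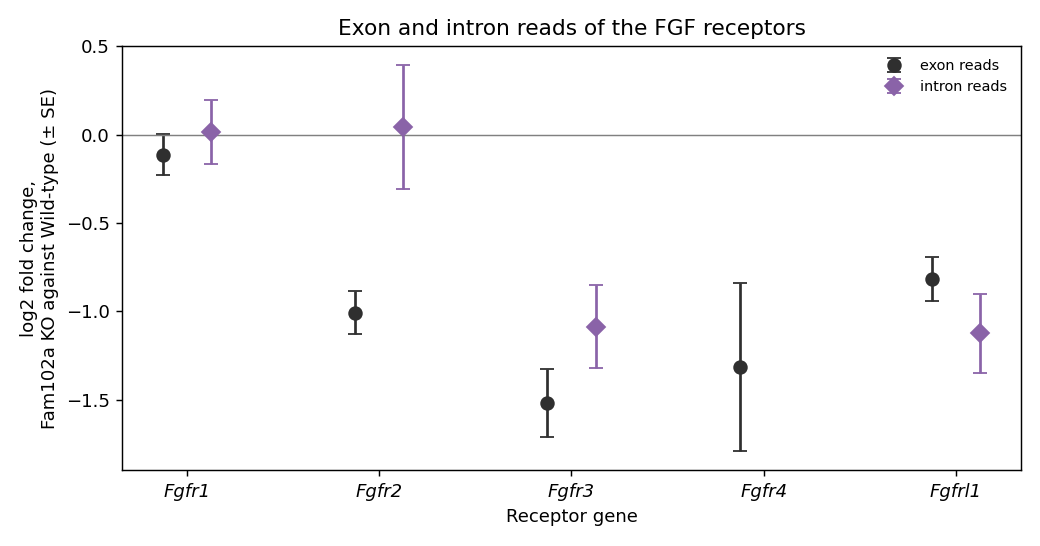
Log2 fold change of exon reads (circles) and intron reads (diamonds) in Fam102a KO against Wild-type, with standard errors, for the receptors tested. *Fgfr3* and *Fgfrl1* lie below 0 in both, *Fgfr2* at −1.01 in exon and 0.04 in intron reads, and *Fgfr1* near 0 in both.

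Of the marker lists, only the chondrocyte list had a summed RPKM that did not overlap between genotypes. Of 15 tested chondrocyte markers, before adjustment 9 passed p under 0.05 as lower and 1, *Col10a1*, as higher, against 3.4% lower and 3.41% higher over all genes tested. The 9 were *Comp*, *Cnmd*, *Col9a1*, *Col9a2*, *Col9a3*, *Col11a2*, *Hapln1*, *Sox5* and *Sox6*, with log2 fold changes of −2.78 (*Cnmd*) to −0.78 (*Col9a3*). *Comp*, the gene of cartilage oligomeric matrix protein, was called lower after adjustment, with a log2 fold change of −1.51 (standard error 0.161, edgeR adjusted p = 0.0231). Over the 15 markers the median log2 fold change was −0.85, against 0.01 over all genes. The summed RPKM of the list was 549 to 630 in Wild-type and 314 to 474 in Fam102a KO, and each of its 17 members in the tables had reads. The defining *Col2a1* had 315 and 256 RPKM, *Acan* 9.48 and 7.49 and *Sox9* 8.27 and 7.09, with overlap. Osteoblast markers summed to 1633 to 2095 and 1878 to 2111 RPKM. Most of this sum was *Col1a1* at 1001 and 1095 and *Col1a2* at 701 and 782, so its overlap says little about the other members. Of 10 tested, 4 passed p under 0.05 as lower before adjustment, among them *Runx2*, *Sp7* and *Alpl*, and 0 as higher. *Alpl* had 12.8 and 4.23 RPKM (log2 fold change −1.69, edgeR adjusted p = 0.126), *Sp7* 3.92 and 2.10 and *Runx2* 2.34 and 1.98. After adjustment edgeR called 0 of the 10, while DESeq2 called *Alpl* (adjusted p = 2.5e-09) and *Sp7* (0.0263). *Bglap*, the gene of osteocalcin, a marker of mature osteoblasts, had 6, 0 and 0 exon reads in Wild-type and 0, 50 and 0 in Fam102a KO, so that 1 library of each genotype held all of them, and was below the filter. The adipocyte, macrophage and osteoclast, endothelial, skeletal muscle, Schwann and neural crest glia and epithelial lists had summed RPKM that overlapped between genotypes. Of their members tested, before adjustment *Pparg* and *S100b* passed p under 0.05 as lower and *Sox10* and *Foxd3* as higher. Fewer cells of a type and less RNA per cell cannot be told apart in bulk RNA, and the part of cell makeup in the receptor levels was not tested. *Fam102a* had 124, 206 and 207 exon reads in Wild-type and 123, 174 and 157 in Fam102a KO, which does not check the genotype labels, because the count covers exons outside the deletion.

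The genes whose log2 CPM followed the receptors most closely were ranked over the 6 libraries, among 11293 genes with at least 5 CPM on average, as a description only. The 6 points are 3 libraries of each genotype, so that genes that differ between genotypes can rank high. For *Fgfr2* they were *Fbln7* (Pearson r 0.995), *Chpf* (0.995), *Cetn2* (0.992), *Pak1* (0.992) and *Pam* (0.991). For *Fgfr3* they were *Runx2* (0.997), *Adam22* (0.996), *Fem1c* (0.991), *Efnb1* (0.987) and *Alpl* (0.981). *Fgfr2* and *Fgfr3* themselves had r = 0.957, and *Fgfr1* had 0.368 with *Fgfr2* and 0.259 with *Fgfr3*.

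The other genes of the pathway were read from 4 lists of 84 genes in all, of which 83 were found and 67 tested. At an unadjusted p under 0.05, 5 were higher (background 3.41%) and 2 were lower (background 3.4%), edgeR called 0 at an adjusted p under 0.05, and the median log2 fold change was 0.06.

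Of 22 FGF ligands, 10 had enough reads to be tested, with a median log2 fold change of −0.01. *Fgf7*, a ligand of the epithelial form of Fgfr2, was the highest at 10.7 ± 1.53 RPKM in Wild-type and 10.03 ± 2.95 in Fam102a KO (SD, n = 3 each). *Fgf2* had 4.14 ± 0.565 and 3.78 ± 0.245 RPKM. *Fgf18*, a ligand of osteogenic and chondrogenic cells, had 1.78 ± 0.701 and 2.04 ± 0.431. Only *Fgf14*, an intracellular member that does not signal through the receptors, passed an unadjusted p under 0.05 (log2 fold change −0.54), and it is named after its value was seen.

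Of 21 co-receptors and heparan sulfate carriers, 17 were tested, with a median log2 fold change of 0.02 and 0 genes past an unadjusted p under 0.05 in either direction. The most abundant were *Sdc4* (63.9 ± 3.23 and 55.1 ± 6.82 RPKM), *Hspg2*, the gene of perlecan (40.2 ± 6.88 and 39.4 ± 7.15), and the glypican *Gpc3* (31.7 ± 6.14 and 29.2 ± 10.2). In CPM of exon reads each overlapped between genotypes. The log2 fold change of *Sdc4* was −0.33 (edgeR adjusted p = 0.759). All 23 adaptors and signal carriers were tested, with a median log2 fold change of 0.06. *Nedd4*, a ubiquitin ligase that acts on Fgfr1, had 88.6 ± 9.77 and 94.9 ± 13.1 RPKM, while its log2 fold change in the exon fit was −0.03. *Mapk3*, which encodes ERK1, had 33.9 ± 5.60 and 34.4 ± 4.70 (log2 fold change −0.11), and *Shc1* 22.9 ± 1.62 and 25.7 ± 6.09 (0.03). All of these overlapped between genotypes. *Frs2*, the docking protein of the receptors, was the 1 member past an unadjusted p under 0.05 and is named after its value was seen. Its log2 fold change was −0.25 (edgeR adjusted p = 0.684), with 3.68 ± 0.322 RPKM in Wild-type and 3.38 ± 0.335 in Fam102a KO.

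The feedback and response genes are induced by ERK signalling or restrain it. Of 17 tested, 5 passed p under 0.05 as higher (background 3.41%) and 0 as lower (background 3.4%) before adjustment. By sign alone, 11 were fitted higher and 6 lower. The median log2 fold change was 0.15, against 0.01 over all genes tested. *Rasa3*, a GTPase-activating protein of Ras, was the most abundant at 14.5 ± 1.30 and 19.96 ± 0.919 RPKM (log2 fold change 0.34, edgeR adjusted p = 0.494). *Dusp6*, the phosphatase of ERK, had 5.45 ± 0.992 and 8.74 ± 0.572 RPKM (log2 fold change 0.55, edgeR adjusted p = 0.476), and *Etv5*, an ETS factor, had 7.23 ± 0.454 and 8.41 ± 0.796. *Spry1*, *Spred3* and *Etv4*, named after their values were seen, were the other 3 that passed p under 0.05 as higher before adjustment. *Spry1*, an inhibitor of receptor signalling to ERK, had 45, 41 and 45 exon reads in Wild-type and 132, 192 and 105 in Fam102a KO, every Fam102a KO library being high. Its log2 fold change was 1.56 (standard error 0.297, edgeR adjusted p = 0.162), and it passed with a replicate block (edgeR adjusted p = 0.0479, range over the alternatives 5.16e-07 to 0.870).

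**Figure D5:**
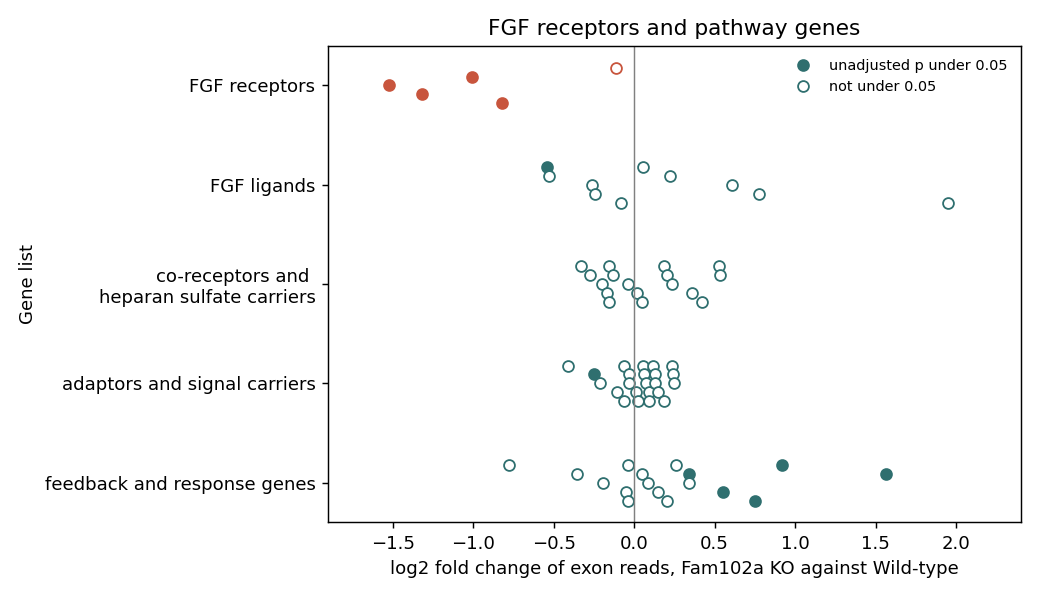
Log2 fold change of exon reads in Fam102a KO against Wild-type for each tested gene of the receptors (red) and the 4 pathway lists (green), filled where the unadjusted p was under 0.05. *Fgfr1* lies at −0.11 and the other receptors between −1.52 and −0.82, and single genes of the lists lie on either side of 0.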

How the data were processed

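RNA was amplified as cDNA (SMART-seq v4) and sequenced on an Ion Proton. Mapping to mm10 and counting were done by the authors in CLC Genomics Workbench. They deposited, per library and gene, counts of exon, intron, junction and uniquely placed reads. The deposited RPKM, computed by the authors, divide exon reads by exon length and by all gene reads, and recomputing them from the counts gave the same values. How the reads were mapped and which annotation release was used is not given in the sources used here. Gene reads per library numbered 12212169 to 21210150 and exon reads 5801394 to 9928262, and the precision of a level follows the reads behind it. Introns held 52.5, 54.5 and 52.2% of gene reads in Wild-type replicates 1, 2 and 3 and 46.4, 53.2 and 45.8% in Fam102a KO replicates 1, 2 and 3. RPKM divide by all gene reads, introns included, so they run higher in Fam102a KO than the exon fit does. The median log2 fold change of all genes was 0.12 with log2(RPKM + 0.1) and 0.01 in the exon fit. The recomputation of RPKM left out 19697 genes without an annotated exon.

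Exon reads, intron reads and their difference were tested in edgeR 4.0.16 (R 4.3.3) with its default filter (minimum count 10, minimum total 15), TMM and the robust quasi-likelihood test, with p adjusted by Benjamini-Hochberg and read at 0.05. Exon reads were the main measure because the span of *Fgfr2* holds other genes. Fold changes are Fam102a KO over Wild-type, and standard errors were taken as the absolute log2 fold change divided by the root of F. The methods of the study name Student's test without its input, so a count model took its place. The fits were also run on counts simulated with less spread between libraries than these data have, so that run does not show their error rate here. Shares and ratios were compared by exact permutation tests. Pairing by replicate number was checked on deviations from group means over 11293 genes, where same-numbered libraries had r = 0.30, 0.19 and 0.15, against −0.35 to 0.17 for other pairs. The numbers were therefore treated as pairs in an alternative fit with a replicate block, although the labels leave the meaning of a number unstated. A single run label is shared by replicates 2 and 3 of each genotype, not by replicate 1. Alternatives also used DESeq2 1.42.0 and limma 3.58.1 on log2(RPKM + 0.1) and log2(RPKM + 1). Junction reads were added as an alternative after the data were seen.

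The members, the pathway and marker lists and the tests were chosen with earlier results of these data known. Named genes were the receptors, the 3 most abundant and any called gene of each pathway list, the 5 genes most like *Fgfr2* and *Fgfr3* (log2 CPM, prior count 2), 5 genes inside the *Fgfr2* span and the defining markers. Of the listed genes, those without a match were not analysed here. One osteoblast marker is not reported here by name. The other versions were Python 3.11.15, numpy 2.4.6, scipy 1.17.1 and matplotlib 3.10.9.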

Additional observations from a re-analysis of the deposited data

How the results depend on the processing

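Over all alternatives, the exon fold changes of *Fgfr2*, *Fgfr3*, *Fgfr4* and *Fgfrl1* kept their sign. The exon call was lost for *Fgfr2* and *Fgfr3* without the robust fit (−1.01 and −1.52), on gene reads (−0.33 and −1.48), with limma on log2(RPKM + 0.1) (−0.88 and −1.33) and log2(RPKM + 1) (−0.85 and −1.08), and with replicates 2 and 3 only (−0.98 and −1.70). *Fgfr3* also lost it with the replicate block (−1.51). *Fgfrl1* was called with DESeq2 (−0.83), without a filter (−0.82) and with the block (−0.83). The cause was not tested, except that fewer libraries entered the fit on replicates 2 and 3. Leaving out 1 library gave −1.06 to −0.93 for *Fgfr2*, −1.68 to −1.34 for *Fgfr3*, −0.91 to −0.72 for *Fgfrl1* and, in intron reads, −0.083 to 0.14 for *Fgfr1* and −0.42 to 0.25 for *Fgfr2*. *Fgfr1* turned to 0.0103 and 0.0106 in exon reads with the limma settings, where the median of all genes rose by 0.12 and 0.08. Relative to that median *Fgfr1* was −0.11 and −0.07. With log2(RPKM + 0.1), 988 genes passed p under 0.05 as higher and 209 as lower before adjustment, against 472 and 471 in the main exon test. In intron reads, *Fgfr1* turned to −0.018 on uniquely placed reads, and *Fgfr2* to −0.057 with the block and −0.37 with replicates 2 and 3 only. Without a filter, intron reads called *Fgfr3* (−1.09) and *Fgfrl1* (−1.13), the block called *Fgfrl1* (−1.12), and the exon minus intron change of *Fgfr2* was called (−0.94).

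The exon test called 3 genes higher and 8 lower over all genes, DESeq2 42 and 74, no filter 157 and 169, the block 15 and 27, edgeR without the robust fit 0 and 4, limma 4 and 3 or 1 and 3, gene reads 3 and 5, and replicates 2 and 3 only 0 and 0 (441 and 357 at an unadjusted p under 0.05). The intron test called 3 and 1, DESeq2 5 and 2, no filter 47 and 44 and the block 4 and 8. Exon minus intron called 5 and 3 without a filter.

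Among FGF ligands at an unadjusted p under 0.05, 1 was higher with the block, DESeq2 or replicates 2 and 3, and the number lower was 2 with the block or gene reads and 0 with replicates 2 and 3. Among co-receptors, 1 was higher and 1 lower with the block or DESeq2, and 1 lower on gene reads. Among adaptors, 1 was higher with the block and 0 lower with DESeq2 or replicates 2 and 3. Leaving out 1 library gave 0 to 1 ligands higher and 0 to 2 lower, 0 to 2 co-receptors in each direction, and 0 to 2 adaptors in each. The differences in receptor share and ratio kept their sign under every alternative run, except that the *Fgfrl1* share, −0.70 percentage points, was 0.46 without Fam102a KO replicate 3. *Fgfr4* could not be fitted with at least 10 reads in every library. *Fgfr4* and the intron reads of *Fgfr3* and *Fgfrl1* rest on the fewest reads.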
